A study of Mus musculus with 3 samples.

Results

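The NR4A and EGR activation factors are 6 genes chosen by symbol: Nr4a1, Nr4a2 and Nr4a3, and Egr1, Egr2 and Egr3. They are 6 of the 32285 genes in the count matrices, and each was found in all 3 libraries. Earlier results of these data were known when they were chosen. The study sorted lymphocytes from the lungs of mice for single-cell RNA sequencing with the 10x Chromium 3' kit, which counts 1 end of each captured molecule by its unique molecular identifier (UMI). All 3 libraries came from perfused, enzyme-digested lungs of GFI1B-GFP mice, gated on live cells that were CD45+, CD90.2+ and IL-7R+ and lacked lineage markers. The IL-18R- ST2+ library (the ST2+ library) was sorted for the IL-33 receptor chain ST2. The IL-18R+ pool mixes IL-18R+ CD103+ GFP- with IL-18R+ CD103- GFP+ cells, and its barcodes cannot be traced to either sort. The third was labelled IL-18R- CD103- GFP- and is called the labelled-negative library below. The labels give no age, no treatment and no number of animals, and there was 1 library per group. No difference below therefore has a test or a replicate check. Intervals are 95% and cover counting error only: exact Poisson for levels, exact Clopper-Pearson for shares of cells, and binomial approximations for ratios and differences of shares.

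NR4A proteins are nuclear receptors without a known natural ligand in the usual pocket, and EGR proteins are zinc finger factors that bind GC-rich DNA. Both families are immediate early genes, transcribed within minutes of receptor signalling without new protein synthesis. In T cells Nr4a1 and Egr1 follow antigen receptor signalling, Egr2 and Egr3 are induced through calcium and NFAT, and NR4A factors take part in restraint of the response. Group 2 innate lymphoid cells (ILC2) have no antigen receptor and are activated by IL-33, TSLP and other tissue signals, after which they make Il5, Il13 and Csf2. Enzyme digestion of tissue can itself induce immediate early genes; its part in these levels was not tested.

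In the GENCODE M21 annotation of mouse build GRCm38 all 6 are protein-coding genes. Nr4a1 lies at chr15:101254269-101274795 on the plus strand, Nr4a2 at chr2:57106830-57124003 on the minus strand and Nr4a3 at chr4:48045153-48086447 on the plus strand. Egr2 lies at chr10:67535475-67542188 and Egr3 at chr14:70077203-70082614, both on the plus strand.

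Promoter windows from RefSeq (GRCm38.p6) were found for Nr4a1, Nr4a2, Nr4a3 and Egr2. The 250 bases before the RefSeq start are shown for Nr4a1 and Nr4a2 because these are the most abundant members in the ST2+ library, and 30-base sites are shown for Nr4a3 and Egr2. Capitals mark the core TGACG of the cyclic AMP response element (CRE), on either strand, in the NR4A sequences, and CArG boxes, the serum response factor motif, in Egr2. All are written 5′ to 3′ on the strand of the gene.
Nr4a1, chr15:101266596-101266845, plus strand: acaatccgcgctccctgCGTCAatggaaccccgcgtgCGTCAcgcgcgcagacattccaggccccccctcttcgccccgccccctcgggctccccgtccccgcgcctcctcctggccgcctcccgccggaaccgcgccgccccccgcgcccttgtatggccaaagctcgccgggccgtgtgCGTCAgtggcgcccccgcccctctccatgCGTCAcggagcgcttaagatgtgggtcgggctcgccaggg
Nr4a2, chr2:57124004-57124253, minus strand: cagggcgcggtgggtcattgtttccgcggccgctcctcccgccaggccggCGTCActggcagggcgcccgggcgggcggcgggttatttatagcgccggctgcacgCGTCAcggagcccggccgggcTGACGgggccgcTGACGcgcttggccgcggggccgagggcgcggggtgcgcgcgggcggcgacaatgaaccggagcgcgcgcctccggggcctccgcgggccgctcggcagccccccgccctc
Nr4a3, chr4:48045069-48045098, plus strand: gagggTGACGtagcgtcccatgtCGTCAca
Nr4a3, chr4:48045095-48045124, plus strand: cacatTGACGtctcgcattccaggcactct
Nr4a3, chr4:48045153-48045182, plus strand: ataaaTGACGtgccgagagagcgagcgaac
Egr2, chr10:67537489-67537518, plus strand: cttctCCTTTTTTGGaaagtctcggagaac
Egr2, chr10:67537792-67537821, plus strand: tcagtCCATATATGGgcagcgacgtcacgg
Each of the 3 NR4A windows held 4 CRE cores. The window of Nr4a1 lies inside the GENCODE gene, which has a start further upstream, and that of Nr4a3 runs past the GENCODE start. Of 32851 RefSeq promoter windows of the same 250 bases, 17.8% held at least 1 such core on either strand and 0.137% held at least 4. The 5 windows of Egr2, which overlap in part, held between 0 and 2. CArG boxes were matched in 4 of the 5 Egr2 windows and in none of the NR4A windows, against 1.47% of all windows; 3 of those 4 windows overlap and share 1 box, so the 2 boxes shown are all there are. The other motifs searched on both strands were the NFAT core GGAAA (55.6% of all windows), the AP-1 site TGANTCA (6.75%), the NR4A site AAGGTCA (4.08%) and the EGR site (4.7%). The AP-1 and NR4A motifs had no match in any of these windows, Nr4a1 and Nr4a2 had 1 EGR site each, and the NFAT core was found 1 time in Nr4a2, 0 times in Nr4a1 and Nr4a3 and 0 to 3 times in the Egr2 windows. These are letter matches in short windows, and nothing in the data measures binding there.

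After filtering, 5138 cells were kept, 1611 in the ST2+ library, 1655 in the pool and 1872 in the labelled-negative library, with median depths between 4568 and 4930 UMIs per cell. One cell barcode occurred in both of the last 2 libraries. Il1rl1, which encodes ST2, had 867.8 UPM (UMIs per 1000000 UMIs of the same cells) in the ST2+ library, 4.91 in the pool and 5.52 in the labelled-negative library. Il18r1 had 15.7, 663.3 and 591.8 UPM in the same order, so the transcript goes against the IL-18R- part of the last library's label, and its name here says only how it was labelled.

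All of the factors but Egr2 were abundant in the ST2-sorted cells, and Nr4a1 led. Nr4a1 (Nur77), which in T cells reports antigen receptor signalling, had 2267 UPM (2234 to 2301) in the ST2+ library, 558.9 UPM (543.6 to 574.6) for the pool and 498.6 UPM (484.6 to 512.9) in the labelled-negative library. The intervals of the 3 libraries did not overlap, and the ST2+ level was 4.06-fold and 4.55-fold that of the other libraries. Nr4a2 (Nurr1), known for its part in dopamine neurons, had 898.0 UPM in the ST2+ library, 210.1 in the pool and 235.9 in the labelled-negative library. The first was 4.27-fold and 3.81-fold the others. Nr4a3 (Nor1) had 803.5, 291.7 and 276.6 UPM in the same order, with ratios of 2.75 and 2.90, and its intervals in the last 2 libraries overlapped.

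The EGR genes differed from each other more than the NR4A genes did. Egr1 is an early target of MAP kinase signalling in many cell types and lies at chr18:34859823-34864984 on the plus strand. Egr1 had 551.7 UPM (535.4 to 568.3) in the ST2+ library and 299.3 (288.1 to 310.9) for the pool, a ratio of 1.84. In the labelled-negative library it had 208.2 (199.1 to 217.5), a ratio of 2.65. Of its 2685 UMIs in the pool, 1153 came from 172 cells with transcripts of B, myeloid, mast or stromal cells. In the labelled-negative library 209 of 1998 came from 53 such cells. Ratios between libraries without these cells were not computed. Egr3 had 380.5 UPM (367.0 to 394.4) in the ST2+ library, 14.6 (12.2 to 17.3) for the pool and 10.8 (8.85 to 13.1) in the labelled-negative library. Its level in ST2-sorted cells was thus 26.1-fold (21.9 to 31.3) and 35.1-fold (28.9 to 43.1) that of the others. Egr2, which shares targets and the NAB corepressors with Egr3, was rare everywhere: 18.5, 4.79 and 2.29 UPM, from 146, 43 and 22 UMIs.

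Between libraries a gene was counted where it reached 20 UPM in either library and differed at least 2-fold. For the ST2+ library over the pool, 4 of the 6 members were higher (Nr4a1, Nr4a2, Nr4a3 and Egr3), where 4.33% of 5930 measured genes were higher and 12.3% lower. Over the labelled-negative library 5 members were higher, with Egr1 added, where 5.4% of 5736 genes were higher and 9.57% lower. No member was lower in either. For the pool over that library the count was 0, where 2.55% of 5812 genes were higher and 0.791% lower. Egr2 stayed under 20 UPM in all libraries and Egr3 in the last 2, so they could not be counted there. These 3 comparisons share libraries. TMM scaling added 0.28 to the log2 ratios over the pool and 0.15 to those over the labelled-negative library, where the median of all measured genes before scaling was -0.30 and -0.19. Under it all 6 members were higher in both, while the genes higher over the pool rose from 257 to 388. Egr2, at 18.5 UPM in the ST2+ library before scaling, was then counted only through that library. Egr3 was counted over both libraries only through its ST2+ level, with and without TMM.

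Shares of cells were also highest in the ST2+ library once every cell had been thinned to the same 3000 UMIs. Shallower cells were left out, 106 in the ST2+ library, 107 in the pool and 93 in the labelled-negative library. Whether cells of different depth also differed in state was not tested. Nr4a1 was found in 93.0% of thinned cells of the ST2+ library, 61.6% of the pool and 57.1% of the labelled-negative library. Egr3 was found in 44.0%, 2.65% and 1.91% in that order, and Egr1 in 58.1%, 26.4% and 26.1%. Egr1 was more concentrated in the pool and the labelled-negative library than in the ST2+ library. The 3 highest cells held 9.24% of its UMIs in the pool, 7.81% in the labelled-negative library and 3.7% in the ST2+ library.

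Cells were next divided by fixed transcript rules, whose names describe the rule. The ILC2 rule (ST2+ library, at least 2 UMIs of Il1rl1 and Gata3 together, no Cd3e or Cd3d) took 1483 of 1611 cells, or 92.0%. Beyond the rule's own genes, Il7r was found in 96.7% of them, Rora in 95.9%, Areg in 72.0% and Arg1 in 52.9%. Ncr1, Klrb1c and Eomes of natural killer cells, Il22 and Il23r of ILC3, Ms4a1 of B cells, and Mcpt8 and Fcer1a of basophils were at 0. Trbc1 and Trbc2 were found in 71.6% and 74.8% of them and Cd3g in 20.4%. Globin transcripts came almost wholly from 1 cell, which held 95.05% of their UMIs. The 67 cells just inside the threshold had 2283 UPM of Nr4a1 and 194.8 of Egr3, and the 35 cells of this library with 1 UMI, just outside, had 2022 and 402.8.

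**Figure D1:**
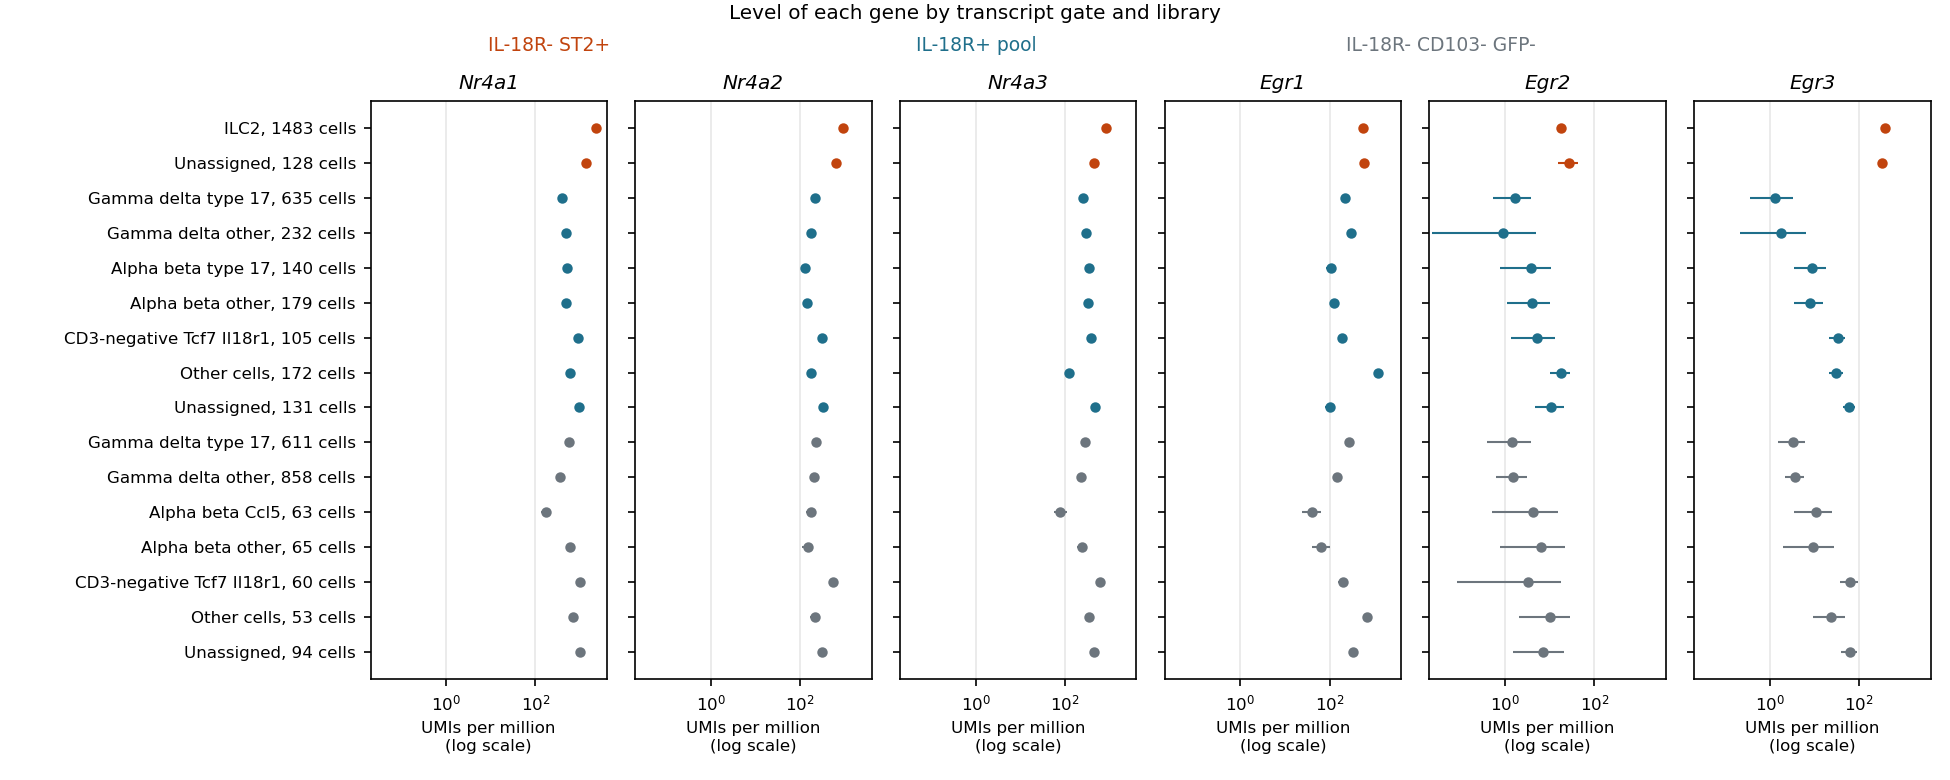
Level of each factor (UPM, log scale) in every transcript gate of at least 50 cells, with ILC2 at the top, coloured by library. Points are levels and bars are exact Poisson 95% intervals. ILC2 stand highest for Nr4a1 at 2341 UPM, and Egr3 separates the ST2+ cells, at 384.3 UPM in ILC2, from the gamma delta gates, all at 3.67 UPM or below.

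ILC2 held the highest level of Nr4a1, Nr4a2 and Nr4a3 among the 16 gates of at least 50 cells. Nr4a1 was at 2341 UPM (2306 to 2376) in ILC2, followed by 1378 in the other cells of that library, 1018 in the unassigned and 1015 in the CD3-negative Tcf7 Il18r1 cells of the labelled-negative library. The last 2 overlapped, and so did most neighbours further down, to 363.9 UPM in its gamma delta cells without type 17 genes. Its alpha beta cells with Ccl5, a gate of 63 cells, were lowest at 169.5 UPM. CD3-negative Tcf7 Il18r1 cells, whose rule excludes Cd3g and Trdc as well as Cd3e and Cd3d, had 912.2 UPM in the pool.

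Nr4a2 and Nr4a3 were also highest in ILC2, and their levels in CD3-negative Tcf7 Il18r1 cells differed between libraries. Nr4a2 had 919.8 UPM in ILC2, 634.1 UPM in the other cells of the ST2+ library and 533.4 UPM in the CD3-negative Tcf7 Il18r1 cells of the labelled-negative library, against 207.9 to 221.0 UPM in the gamma delta gates of that library and 130.5 UPM in type 17 alpha beta cells of the pool, the lowest. Nr4a3 had 832.4 UPM in ILC2, 608.2 UPM in those CD3-negative cells and 79.4 UPM in the alpha beta cells with Ccl5. In the pool the CD3-negative Tcf7 Il18r1 cells had 307.9 UPM of Nr4a2 and 388.1 UPM of Nr4a3, against 325.5 and 484.9 UPM in its unassigned cells, and the intervals overlapped for Nr4a2 and not for Nr4a3.

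Egr1 had another order. Its highest level, 1197 UPM (1129 to 1268), was in the 172 cells of the pool with transcripts of B, myeloid, mast or stromal cells, where Fos was also high at 2384 UPM. The corresponding 53 cells of the labelled-negative library had 692.1 UPM. ILC2 came after these and the other cells of their own library (599.2 UPM), at 547.8 UPM, and the last 2 overlapped. Gamma delta type 17 cells had 225.5 UPM of Egr1 in the pool and 265.6 in the labelled-negative library, and alpha beta cells with Ccl5 had 40.8.

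Egr3 was near the limit of counting in gamma delta cells. ILC2 had 384.3 UPM, and the 128 other cells of their library 335.3 UPM, with overlapping intervals. CD3-negative Tcf7 Il18r1 cells had 61.8 UPM (37.2 to 96.5) in the labelled-negative library and 33.1 (21.6 to 48.5) in the pool. The 4 gamma delta gates had 1.31 to 3.67 UPM, with 1 of 620 and 5 of 577 thinned type 17 cells holding a UMI. In the same cells Nr4a3 was at 255.1 and 276.5 UPM, against 832.4 in ILC2, and Nr4a1 at 398.7 and 575.4, against 2341. Each of the factors was lower in these type 17 cells than in ILC2. Whether low Egr3 there was part of a lower level of all the factors was not tested.

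Within ILC2 the factors ranged from near-universal to rare. Of 1400 ILC2 with at least 3000 UMIs, thinned to that depth, 93.9% (92.5 to 95.1) had Nr4a1, with a median of 6 UMIs per cell. Nr4a3 was found in 70.3%, Nr4a2 in 64.5%, Egr1 in 59.4%, Egr3 in 43.8% (41.2 to 46.4) and Egr2 in 4.07%. Most ILC2 held several at once: 29.3% had 4 of the 6, 24.6% had 3 and 19.8% had 5, and 2.64% had none. Counts per cell were spread more widely than random sampling gives, with variance 3.4 times the mean for Nr4a1 and 4.53 times for Nr4a2, so the Poisson intervals on levels in groups of cells are narrower than the spread between cells warrants.

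The ILC2 were then split by whether a UMI of Il5, Il13 or Csf2 was found at the same 3000 UMIs. Il5 and Il13 encode the type 2 cytokines of eosinophil and epithelial responses, and Csf2 encodes GM-CSF. Il5 was found in 219 of the 1400 cells, Il13 in 198, Csf2 in 579, and any of these in 759, leaving 641 with none. Nr4a1, Nr4a2, Nr4a3 and Egr3 were found more often in the cells with a cytokine transcript, and Egr1 was not. Before thinning, the cells with any cytokine transcript had a median of 4831 UMIs, against 4517 in the rest.

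Egr3 was found in 50.3% (46.7 to 53.9) of the ILC2 with any of the cytokines, against 36.0% (32.3 to 39.9) of those with none. The ratio of these shares was 1.40 (1.23 to 1.58). Nr4a3 was found in 75.2% (72.0 to 78.3) of cells with any cytokine and 64.4% (60.6 to 68.1) of cells with none, a ratio of 1.17 (1.09 to 1.25). For Nr4a2 the shares were 68.5% with and 59.8% without, a ratio of 1.15 (1.06 to 1.24). Nr4a1, already in nearly all cells, was in 96.6% with and 90.6% without.

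Egr1 was found in 59.0% (55.4 to 62.6) of ILC2 with any cytokine and in 59.8% (55.8 to 63.6) of those with none, a ratio of 0.99 (0.91 to 1.08). Egr2 was in 4.88% with and 3.12% without, from 37 and 20 cells, and its interval of 0.92 to 2.66 included 1. In all, 4 of the 6 ratios had an interval above 1 for any cytokine, 3 for Il5, 5 for Il13 and 4 for Csf2, and none of the 24 had an interval below 1. These intervals are not adjusted for their number. No such count over all measured genes is given, so these counts do not set the members apart from other genes.

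**Figure D2:**
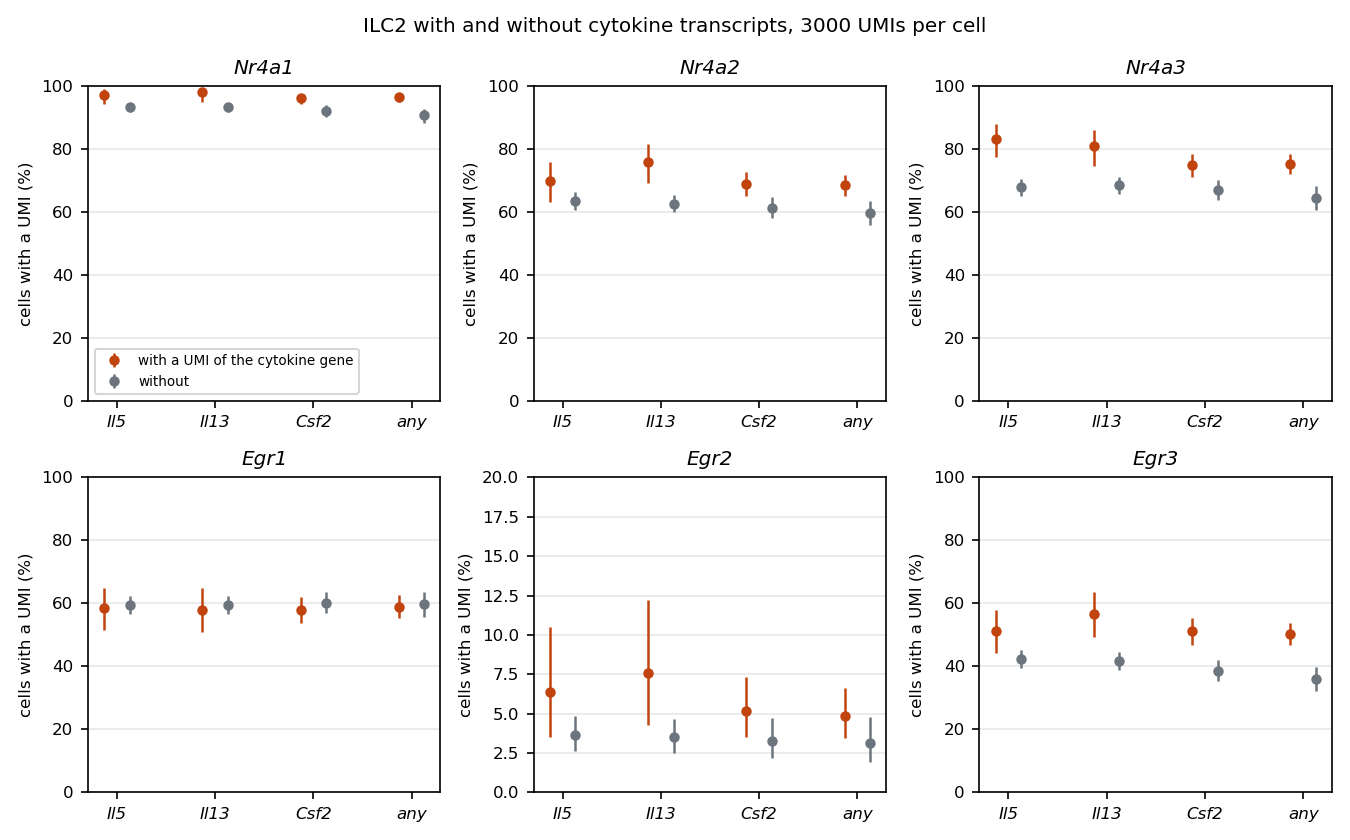
Percent of thinned ILC2 with a UMI of each factor, in cells with (left point of each pair) and without a UMI of Il5, Il13, Csf2 or any of the 3 (right point). Bars are exact Clopper-Pearson 95% intervals, and the axis for Egr2 ends at 20%. Egr3 stands at 50.3% in cells with any cytokine and 36.0% without, while the Egr1 points overlap in every split.

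The width of the gap varied with the cytokine. Nr4a3 had its widest gap with Il5, 83.1% (77.5 to 87.8) with and 67.9% (65.2 to 70.6) without. Nr4a2 had its widest with Il13, 75.8% (69.2 to 81.5) with and 62.6% (59.8 to 65.4) without, and its ratio for Il5 was 1.1 (0.998 to 1.21). Egr3 was in 56.6% of Il13-positive and 41.7% of Il13-negative cells, and in 51.1% of Csf2-positive and 38.6% of Csf2-negative cells. The differences between these splits were not tested, and the cells with Il5, Il13 and Csf2 overlap.

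Levels also put Egr3 above the NR4A genes and Egr1 below 1. Egr3 had 454.5 UPM in ILC2 with any cytokine and 296.9 UPM in those without, a ratio of 1.53. Nr4a2 had 1025 with and 729.1 without (1.41), Nr4a3 942.0 with and 687.5 without (1.37), Nr4a1 2468 with and 2178 without (1.13), and Egr1 527.4 with and 582.4 without (0.91). Egr2 had 21.5 with and 13.5 without (1.59, 0.97 to 2.67), from 49 and 26 UMIs. Among 5163 measured genes ranked by this ratio, Egr2 stood 47th from the top, Egr3 71st, Nr4a2 143rd, Nr4a3 180th, Nr4a1 927th and Egr1 3571st.

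Within ILC2 a gene was counted where it reached 20 UPM in either group of cells and differed at least 1.5-fold. With any cytokine, Egr3 and Egr2 were counted higher, where 1.55% of measured genes were, and no member lower, where 2.67% were. No member was lower for Il5, Il13 or Csf2 either, where 6.21%, 8.05% and 2.4% of genes were. For Il13 the members higher were Nr4a2 (1.61), Nr4a3 (1.71), Egr3 (1.56) and Egr2 (2.06), where 5.21% of genes were higher. For Il5 they were Nr4a3 (1.51) and Egr2 (2.54), where 4.82% were, and for Csf2 Egr2 alone (1.62), where 1.27% were. Egr2 passed the 20 UPM limit only through its cytokine-positive cells, and its counts rest on 19 to 49 UMIs in those cells. Its level ratio for Il13 reversed in other thinning draws. The Il13 count was 2 when cells were thinned to 2000 or 4000 UMIs, under a stricter gate and in the lowest of 20 other draws, and 1 at 2-fold, and the Il5 count was 1 or 0 in 7 of the alternatives.

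**Figure D3:**
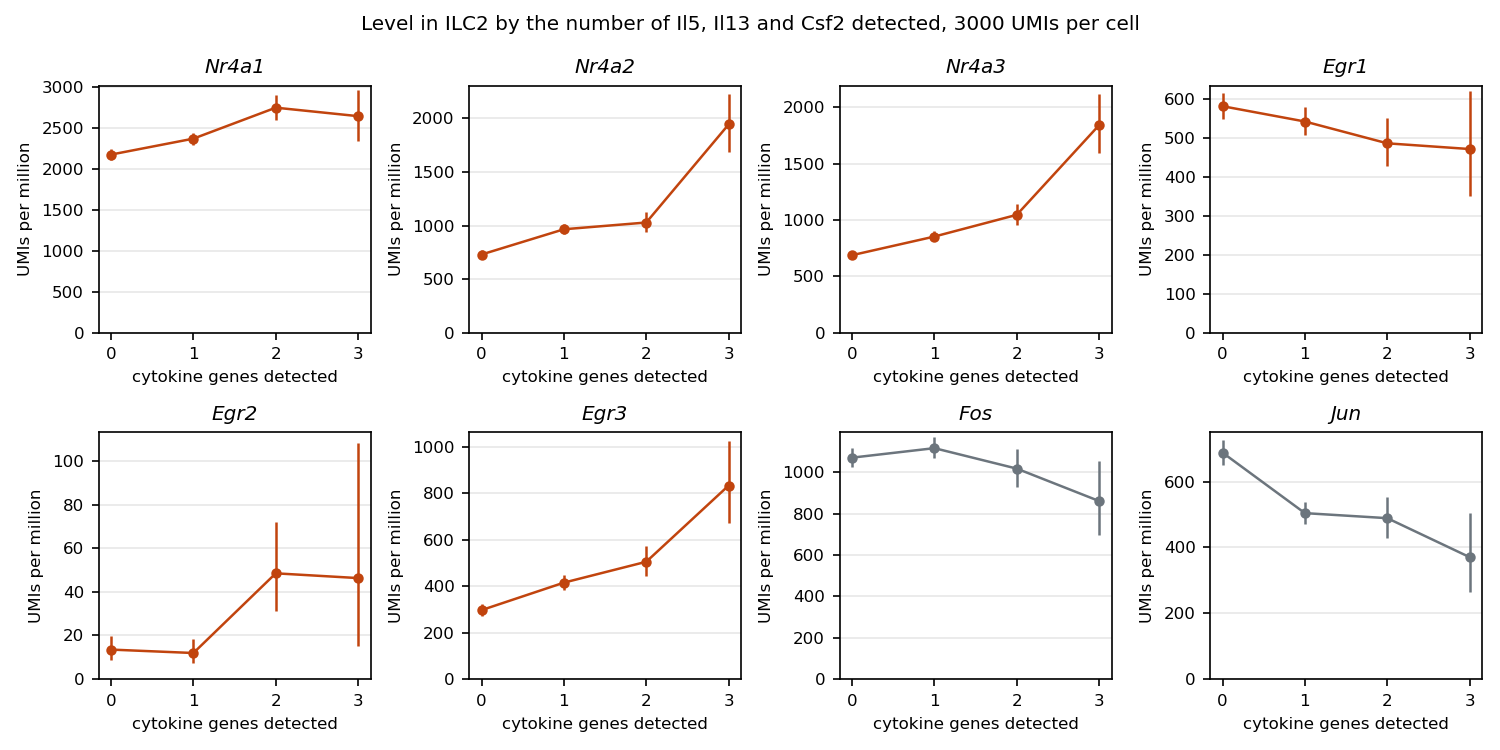
Level (UPM) of each factor and of Fos and Jun in ILC2 with 0, 1, 2 or 3 of Il5, Il13 and Csf2 detected, with exact Poisson 95% intervals. Nr4a2, Nr4a3 and Egr3 are highest in the 36 cells with all 3 cytokine genes, and Egr1, Fos and Jun are lowest there.

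The number of cytokine genes gave a graded series. With 0, 1, 2 and 3 of them found, in 641, 558, 165 and 36 cells, Nr4a3 had 687.5, 853.0, 1046 and 1843 UPM. Nr4a2 had 729.1, 964.8, 1028 and 1944 UPM, and Egr3 had 296.9, 415.2, 505.1 and 833.3 UPM. Nr4a1 had 2178, 2373, 2752 and 2648 UPM. Each step up to 2 cytokine genes was higher than the last for these 4 genes, although the intervals at 1 and 2 overlapped for Nr4a2 and Egr3. Egr1 went the other way, with 582.4, 543.0, 486.9 and 472.2 UPM and overlapping neighbours, and Jun, a partner in the AP-1 factor, had 688.0, 504.2, 488.9 and 370.4 UPM. Fos had 1071, 1117, 1018 and 861.1 UPM. Median depth before thinning also differed along the series, at 4517, 4712, 5297 and 5550 UMIs.

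In cells with 2 or 3 of the cytokine genes the share with Egr3 was 57.7%, against 36.0% with none, a difference of 21.7 points (13.9 to 29.4). For Nr4a3 it was 85.1% and 64.4%, 20.6 points (14.5 to 26.8), and for Nr4a2 76.1% and 59.8%, 16.4 points (9.36 to 23.4). For Egr1 it was 55.7% and 59.8%, a difference of -4.03 points (-11.9 to 3.82). Egr2 was in 8.96% and 3.12%.

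Seen from the factor, 66.7% (60.2 to 72.7) of the 231 ILC2 with 3 or more Egr3 UMIs had a cytokine transcript, against 47.9% (44.4 to 51.5) of the 787 with none. For Nr4a3 it was 63.4% of 484 cells with 3 or more UMIs and 45.2% of 416 with none. For Nr4a2 it was 62.0% of 518 cells and 48.1% of 497.

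The pairing of Egr1 with Egr3, examined after the values were seen, kept the 2 EGR genes apart. A cytokine transcript was found in 61.6% (56.8 to 66.3) of the 425 ILC2 with both, and in 63.8% (56.5 to 70.7) of the 188 with Egr3 and no Egr1 UMI. It was found in 45.8% (40.9 to 50.8) of the 406 with Egr1 and no Egr3 UMI, and in 50.1% (45.0 to 55.3) of the 381 with neither. The cytokine share was thus higher where Egr3 was found, with or without Egr1, and the intervals with and without Egr1 overlapped. For Nr4a3 with Egr3 the shares were 63.9% with both, 55.0% with Egr3 alone, 51.9% with Nr4a3 alone and 41.7% with neither.

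Other secreted products of ILC2 were compared in the same cells. Areg, which encodes the epithelial growth factor amphiregulin and was found in 67.6% of ILC2, went with Nr4a2 (71.3% of Areg-positive and 50.4% of Areg-negative cells), Nr4a3 (77.6% and 55.1%) and Egr3 (48.8% and 33.3%). Ccl1, a chemokine for CCR8, went with the same factors: Egr3 was in 53.3% of Ccl1-positive and 36.1% of Ccl1-negative cells, and Nr4a2 in 75.4% and 55.7%. Tnf went the other way for the NR4A genes. Nr4a2 was in 55.1% of the 185 Tnf-positive and 65.9% of the Tnf-negative cells, a ratio of 0.84 (0.73 to 0.96), and Nr4a3 in 59.5% and 71.9%, a ratio of 0.83 (0.73 to 0.94). Egr3 did not differ by Tnf detection beyond counting error (0.99, 0.83 to 1.18). Of 8 such genes in at least 50 cells, the interval lay above 1 for 5 with Egr3, 5 with Nr4a3, 4 with Nr4a1, 3 with Nr4a2 and 2 with Egr1. For these counts too, no value over all measured genes is given.

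**Figure D4:**
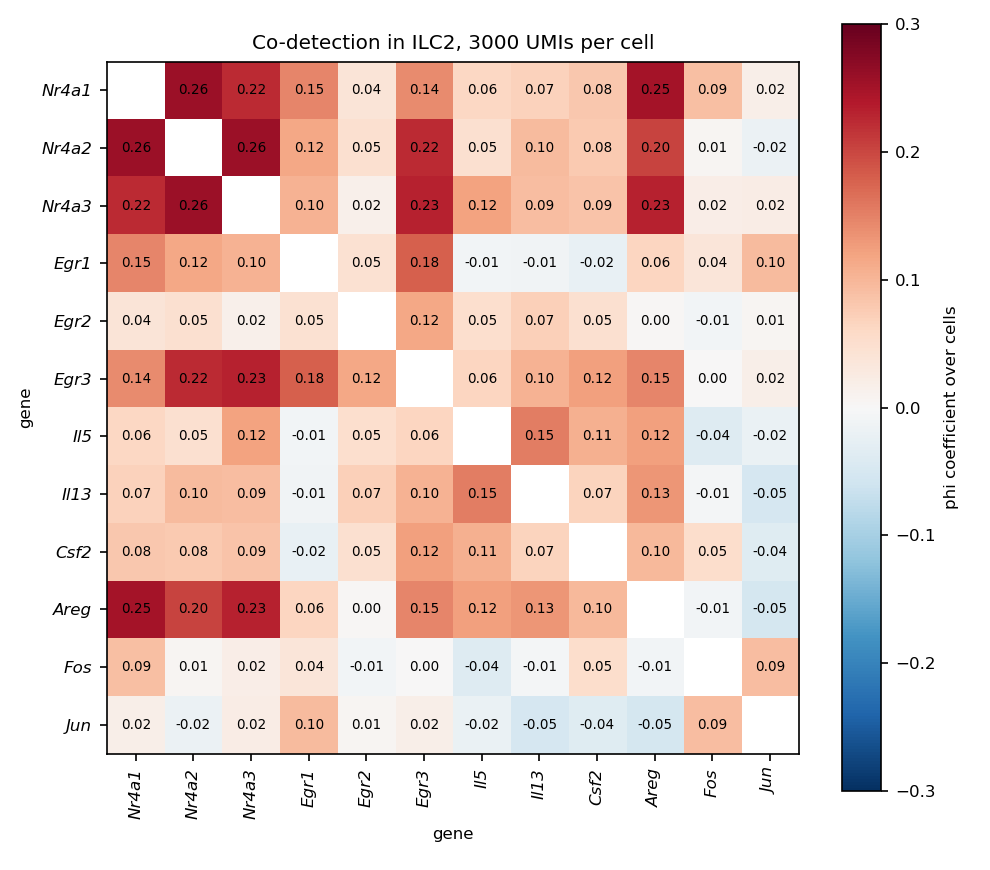
Phi coefficient of detection over 1400 thinned ILC2, for the 6 factors, the 3 cytokine genes, Areg, Fos and Jun, with 1 square per pair. Values of 0.2 or more join Nr4a1, Nr4a2 and Nr4a3 with each other (0.22 to 0.26) and with Areg, and Nr4a2 and Nr4a3 with Egr3 (0.22 and 0.23), and the squares of Egr1 with the cytokines are near 0.

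The factors were found together above the product of their shares in all 15 pairs in ILC2, with small coefficients. The share of other gene pairs above their product is not given, and the pairs with Egr2 rest on 57 cells with Egr2. The phi coefficient, which is 0 for independent detection and 1 for identical detection, was 0.26 for Nr4a1 with Nr4a2, 0.26 for Nr4a2 with Nr4a3, 0.23 for Nr4a3 with Egr3, 0.22 for Nr4a2 with Egr3 and 0.18 for Egr1 with Egr3, each over 1400 cells of 1 library at 1 depth. Egr2 and Egr3 were together in 2.93% of cells, 1.64 times the product of their shares. Phi of Fos was 0.091 with Nr4a1, between 0.0015 and 0.037 with Nr4a2, Nr4a3, Egr1 and Egr3, and -0.0073 with Egr2. The cells share preparation, library and gate, and coefficients this small are given as description. In gamma delta type 17 cells not every pair was above its product. Nr4a2 with Egr1 was at 0.94 times the product in the pool and 0.90 times in the labelled-negative library. Nr4a1 with Nr4a3 was at 1.22 and 1.065 times in the same order.

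The genes most like each factor were taken by phi over 1400 cells among 4989 genes found in 5% to 95% of ILC2, with the 6 factors themselves left out. The choice depends on the measure: 12 of the 25 pairs named here were also among the top 5 by Spearman correlation of the thinned counts. For Nr4a1 they were Gadd45b (0.34), Nfkbia (0.33), Vps37b (0.29), Tnfaip3 (0.27) and Nfkbiz (0.25). For Nr4a3 they were Fosl2 (0.27), Areg (0.23), Tnfaip3 (0.22), Ifrd1 (0.22) and Rel (0.20), and for Nr4a2 Ccl1, Ifrd1, Areg, Zc3hav1 and Gadd45b, all at 0.20. For Egr3 they were Ccl1 (0.17), Fosl2 (0.16), Ell2 (0.15), Areg (0.15) and Gadd45b (0.14). For Egr1 they were Gadd45b (0.13), Fosl2 (0.11), Tnfaip3 (0.11), Tnfsf11 (0.10) and Ccnl1 (0.0999). Nfkbia and Tnfaip3 encode inhibitors of NF-kappaB signalling, and Rel is an NF-kappaB subunit.

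**Figure D5:**
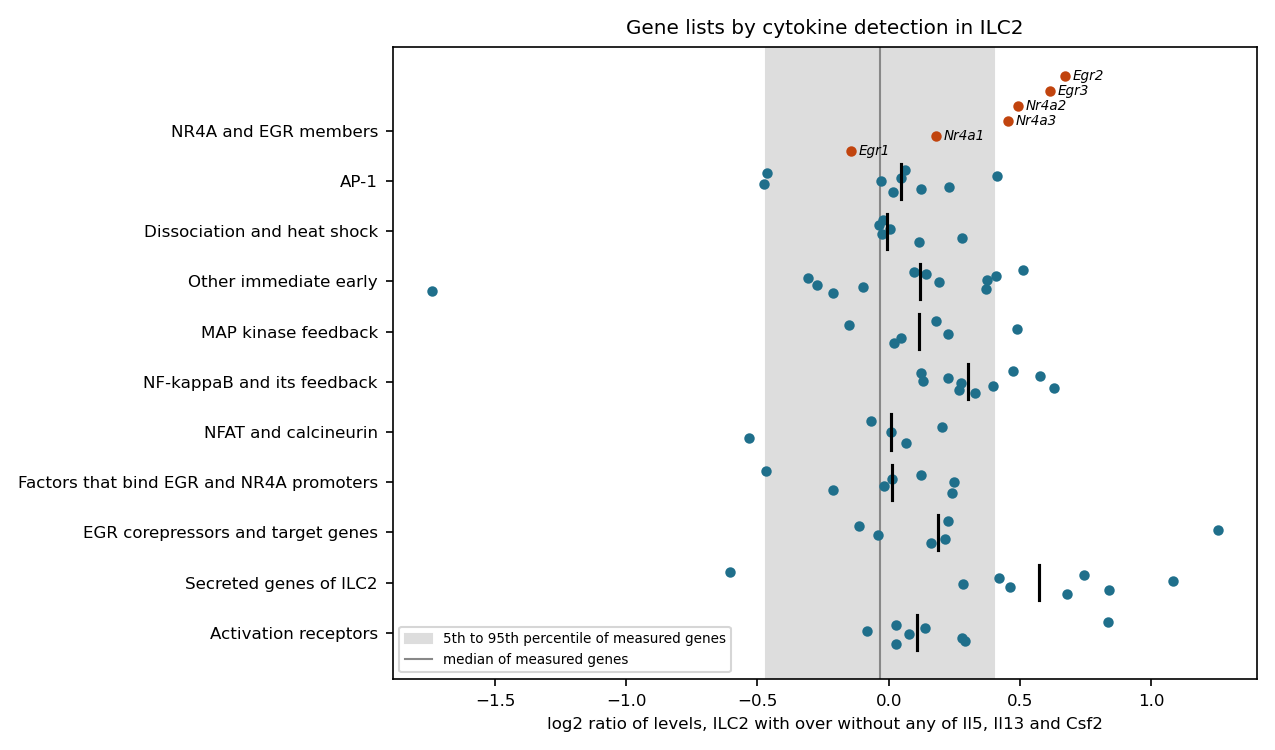
Log2 ratio of levels in ILC2 with over without any of Il5, Il13 and Csf2, 1 point per measured gene, for the 6 factors (top, named) and for lists of related genes, whose medians are black bars. The grey band is the range from the 5th to the 95th percentile of measured genes, -0.47 to 0.40. Egr2, Egr3, Nr4a2 and Nr4a3 lie to the right of the band, and the AP-1 and heat shock medians lie near 0.

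The pathway lists put these values in context, against a median log2 ratio of -0.03 over all measured genes. Of all measured genes, 1.55% were higher and 2.67% lower by 1.5-fold. At those shares, counts of 0 in lists this short do not set a list apart from other genes. In the AP-1 list 0 of 9 measured genes passed 1.5-fold, with a median of 0.05: Fos had 1083 UPM with and 1071 UPM without a cytokine transcript (1.01), Atf3 534.5 and 402.0 (1.33), and Jun 494.5 and 688.0 (0.72). The list of genes of dissociation and heat shock also had 0 of 6, with a median of -0.01, and its summed level was 3011 UPM with and 2823 UPM without. The MAP kinase feedback list had 0 of 6, led by the phosphatase gene Dusp10 (1.40), and the list of factors that bind EGR and NR4A promoters had 0 of 7, with Crem at 1.19 and Mef2d at 0.72.

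The NF-kappaB list had 1 of 10 higher, Rel, with 262.6 UPM with and 169.5 without (1.55), and a median of 0.30, all 10 genes being above 0. The NFAT and calcineurin list had 0 of 5. Among EGR corepressors and targets 1 of 6 was higher, Tnfrsf9 (4-1BB), with 21.1 and 8.84 UPM (2.38), and the corepressor Nab1 was at 1.12. Tnfrsf9 passed the minimum level only through the cells with a cytokine transcript, so it could be counted only as higher. Among other immediate early genes 0 of 12 was higher and 1 lower, Ier3, at 7.47 UPM with and 24.96 UPM without (0.30). Ier3 passed the minimum level only through the cells without a cytokine transcript, so it could be counted only as lower. Among activation receptors 1 of 8 was higher, Pdcd1 (PD-1), at 121.7 and 68.1 UPM (1.79), whereas Il1rl1 was at 1.06 and Icos at 1.02. Among secreted genes 4 of 8 were higher, Ccl1 (2.12), Il4 (1.79), Lif (1.68) and Areg (1.60), and 1 lower, Csf1 (0.66), with a median of 0.57.

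In the Il13 split the median of all measured genes was also -0.03, with 5.21% of them higher and 8.05% lower by 1.5-fold. Other immediate early genes had 2 of 11 higher, Myc and Nfil3, with a median of 0.25, and the NF-kappaB list 2 of 9, Rel and Nfkbie, with a median of 0.32. The medians were 0.19 for AP-1, 0.13 for heat shock and -0.39 for NFAT and calcineurin, with 0 genes past 1.5-fold in each. The AP-1 list summed to 12430 UPM in ILC2 with Il13 and 11410 UPM in those without, and its part in the Il13 values of the factors was not tested.

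Markers of other lineages did not all stand equal between these groups. The T cell list summed to 1076 UPM in ILC2 with a cytokine transcript and 1071 UPM in those without. The myeloid list summed to 0.439 and 4.16 UPM, the B cell list to 2.2 and 2.6 UPM, the list of stromal, endothelial and epithelial genes to 28.99 and 37.96 UPM, and globin genes to 83.4 and 1156 UPM, the last mostly from the 1 cell above. Cells with transcripts of other lineages were 0.659% and 1.56%. Median mitochondrial UMIs were 3.73% and 3.86%. Without the cells that held transcripts of other lineages, the ratio of shares for any cytokine was 1.40 for Egr3, 1.17 for Nr4a3, 1.145 for Nr4a2 and 0.986 for Egr1. The part of the mitochondrial share and of globin transcripts was not tested.

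Gamma delta type 17 cells offered a second cytokine, Il17a. In the pool Nr4a3 was found in 46.4% (41.2 to 51.7) of the 364 thinned cells with Il17a and 33.2% (27.5 to 39.3) of the 256 without, a ratio of 1.40 (1.14 to 1.72). Nr4a2 was in 38.7% and 28.1% (ratio 1.38, 1.09 to 1.74) and Nr4a1 in 62.6% and 50% (1.25, 1.08 to 1.45). In the labelled-negative library, Nr4a1 was in 70.5% of the 251 cells with and 59.2% of the 326 without (1.19, 1.06 to 1.34), whereas Nr4a2 at 1.11 (0.89 to 1.38) and Nr4a3 at 1.11 (0.94 to 1.30) were within counting error. Past 1.5-fold in level were Nr4a3 in the pool (1.58), where 6.42% of genes were higher and 6.8% lower, and 0 members in the other library, where 7.13% were higher and 6.3% lower. By Csf2, a split chosen after seeing the data, no member that reached 20 UPM passed 1.5-fold in level over both gamma delta gates of a library. Of measured genes, 20.5% were higher and 9.96% lower in the pool, and 19.5% and 9.45% in the labelled-negative library. Egr2 and Egr3 stayed under 20 UPM in the splits by Il17a and by Csf2, so they could not be counted. Egr2 and Egr3 were in at most 2 cells of any group split by Il17a. The difference between the libraries was not tested.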

How the data were processed

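Per the labels' protocols, cells were captured with the 10x 3' v3.1 chemistry. The deposited files hold raw UMI counts per gene and barcode, which the authors obtained with Cell Ranger 6.0.1 on build mm10, per the submitters' processing notes. How cell barcodes were called is not given in the sources used here.

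Barcodes needed 500 or more genes and no more than 10% mitochondrial UMIs, and 26 doublet calls of Scrublet (scanpy 1.11.5, 0.504% of cells) were removed. Levels are UMIs summed over cells, per 1000000 UMIs of those cells (UPM). Shares come from cells thinned to 3000 UMIs without replacement; shallower cells were left out (83 of 1483 ILC2). Ratios use a floor of 3 UMIs. The fold rule and thinning were tested on simulated data. Free RNA was not removed, and the ST2+ library holds no gate that should lack these genes from which its share could be read.

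The 6 genes, the lists and the splits were chosen with earlier results of these data known. Named genes were the members, up to 4 genes per list by size of log2 ratio, and the 5 genes most like each member found in at least 10% of ILC2; other list genes are given for comparison. TMM factors came from edgeR 4.0.16.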

Additional observations from a re-analysis of the deposited data

Results flagged for a closer look

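Nr4a2 by Csf2 stood out because the direction differed between cell types: its share was higher in ILC2 with Csf2 (ratio 1.12, 1.04 to 1.21) but lower in gamma delta cells with Csf2 in the pool (0.744, 0.42 to 1.32, 36 cells with Csf2) and in the labelled-negative library (0.989, 0.69 to 1.41, 61 cells). Egr1 by Csf2 was the opposite, with a ratio of 0.963 in ILC2 and 1.23 and 1.42 in the same gamma delta cells. The gamma delta split by Csf2 was chosen after seeing the data. Egr1 by Il17a had a ratio of 1.23 (0.94 to 1.60) in gamma delta type 17 cells of the pool and 0.877 (0.69 to 1.11) in those of the labelled-negative library. None of these differences was tested, and all but the first interval and that of 1.42 included 1.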

How the results depend on the processing

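Over 1123 alternative values of 168 results, 901 stayed within the counting interval of the reported value or within 1.5 times a count, 219 moved and 3 reversed. The share ratio for any cytokine stayed above 1 in all 14 settings for Egr3 (1.29 to 1.51), Nr4a3 (1.101 to 1.248), Nr4a2 (1.09 to 1.25) and Nr4a1 (1.027 to 1.096), and in 4 of 14 for Egr1 (0.898 to 1.035). The causes of the changes below were not tested.

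Reversed were Egr3 by Il5 among cells with 0 Fos UMIs (share ratio 0.932), where Nr4a2 by Il5 (0.976), Egr2 by Il5 (0.399), Egr2 by Csf2 (0.889) and Egr2 by any cytokine (0.95), whose reported intervals included 1, were also below 1, and Egr2 by Il13 in level when thinned to 2000 UMIs (0.934) and in the lowest of 20 other thinning draws (0.875). For any cytokine, Nr4a1 moved to 1.027 when thinned to 4000 UMIs and 1.096 in cells below the median of heat shock genes, Nr4a2 to 1.25 and Egr2 to 3.116 in the highest of 20 draws, and Egr1 to 0.898 at 2000 UMIs.

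Genes higher and lower in the ST2+ library over the pool, 257 and 732 as reported, were 388 and 476 with TMM, 412 and 450 with median-of-ratios scaling, 986 and 3148 with no minimum level and 158 and 354 at 50 UPM. Over the labelled-negative library, 310 and 549 became 1494 and 1865 with no minimum and 191 and 284 at 50 UPM. Between the pool and the labelled-negative library, 148 and 46 became 1997 and 380 (with 1 member higher, Egr2) and 46 and 20.

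Within ILC2, genes higher and lower for Il5, reported as 248 and 320, were 443 and 603 at 2000 UMIs, 109 and 95 unthinned, 39 and 75 at 2-fold and 75 and 46 at 50 UPM, and 387 were higher under the stricter gate. For Il13, 272 and 420 became 465 and 643, 111 and 160, 59 and 99, and 73 and 64 in the same order. For Csf2, 65 and 123 became 150 and 272, 32 and 49, 5 and 9, and 15 and 13, and 132 and 228 under the stricter gate. For any cytokine, 80 and 138 became 145 and 235 at 2000 UMIs, 8 and 9 at 2-fold, 30 and 17 at 50 UPM and 168 and 246 under the stricter gate, with 53 lower unthinned. Members higher for Il5, 2 as reported, were 1 at 4000 UMIs, unthinned, under the stricter gate, without cells of other lineages, at 2-fold and at 50 UPM, and 0 in the lowest draw. For Il13, 4 became 2 at 2000 and 4000 UMIs, under the stricter gate and in the lowest draw, and 1 at 2-fold. For Csf2, 1 became 0 at 2-fold and 50 UPM and 2 in the highest draw. For any cytokine, 2 became 1 at 4000 UMIs, under the stricter gate, at 50 UPM and in the lowest draw, and 0 at 2-fold.

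No library was left out, since each group has only 1. No paired analysis was possible because each group is a single library without a replicate number. Depth limits Egr2, with few UMIs and wide intervals, and Egr3 in gamma delta cells, in at most 2 cells of any group split by Il17a.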
